A study of Mus musculus with 4 samples.

Results

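The liver's own products were followed in Hepa1c1c7, a mouse hepatoma cell line, through 49 genes chosen by name: 22 plasma proteins, 9 enzymes, 11 transcription factors, 5 keratins and surface proteins and 2 oncofetal genes. The array's probes could be given 18217 gene symbols, 45 of the 49 among them, and a probe was taken for a gene only where its transcript name was a RefSeq transcript of that gene. Messenger RNA was measured on 4 one-colour arrays. The DEM group was 2 RNA samples from cells exposed for 6 hours to 100 µM diethyl maleate (DEM), an electrophile that binds thiols such as glutathione and switches on the transcription factor Nrf2. The control group was 2 RNA samples from cells exposed for 6 hours to dimethyl sulfoxide (DMSO), the solvent. All 4 samples came from the same cell line grown in the same medium, and the line is a tumour line, not normal hepatocytes. The labels call the RNA samples of a group independent without naming separate cultures, so a p-value here reflects the spread of 2 RNA samples, and that spread may be technical. The RNA extraction label speaks of liver tissue, but title, source and cell line entries all give Hepa1c1c7, and the samples were handled as that line.

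Hepatocytes secrete most of the proteins of blood plasma, among them albumin, the apolipoproteins that package lipid, and the fibrinogen chains of the clot. They also hold the enzymes of the urea cycle, of glucose production and of bile acid and drug metabolism. A small network of transcription factors, with members of the HNF1, HNF4, FOXA and C/EBP families, binds the promoters of these genes together. Fetal hepatocytes and many hepatomas make alpha-fetoprotein, and cells of the bile duct are marked by Krt7, Krt19, Epcam and Sox9.

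The arrays correlated across genes at 0.994 within the DEM pair and 0.994 within the DMSO pair. Known targets of Nrf2 moved with the label, with Hmox1, the heme-degrading oxygenase, 23.4-fold higher in DEM cells (limma adjusted p = 0.00442) and Nqo1, a quinone reductase, 5.10-fold higher (limma adjusted p = 0.0125). Of 15537 genes tested with limma, 190 passed an adjusted p of 0.05 (1.22%), of which 111 were higher in DEM (0.714%) and 79 lower (0.508%). Macrophage, endothelial and fibroblast markers were read as a check of the label. Of 7 macrophage and leukocyte markers with a probe, Csf1r and Cd14 were well above background on all 4 arrays, Ptprc on 1 and 4, with Adgre1 and Clec4f, on none. Of 6 endothelial markers, Lyve1 and Stab2 were so on all 4 arrays and 4, with Pecam1 and Cdh5, on none. Of the fibroblast and stellate markers, 7 of 10, Vim, Col1a1 and Dcn among them, were well above background on all 4 arrays. Col1a2 was so on 1, and Lrat and Reln on none. The summed signal of that list was 88620 and 96832 in DEM cells and 97576 and 99091 in DMSO cells. Most of that sum came from Col1a1, Vim and Dcn, and a sum over different probes is not a measure of cell content.

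A gene was counted as present on an array where the scanner software marked its probe well above background, a flag that in these arrays began at signals of 15.7 and 14.6 on the DEM arrays and 13.5 and 12 on the DMSO arrays. Signals are processed intensities on a linear scale, and signals of different genes are not set against each other because each probe binds with its own strength. Of the 49 genes, 45 had a RefSeq probe, and Serpina1a, Cps1, Pck1 and H19, for which none was matched, are not reported here. Of the 45 genes, 15 were well above background on all 4 arrays, 10 on 1 to 3 arrays and 20 on none. The 15 make up 33.3%, whereas 57.9% of all 18217 symbols were well above background on all 4 arrays. A weaker flag, which asks only that the spot be positive and above its local background by the software's test, was met on all 4 arrays by 26 of the 45 genes and by 66.8% of all symbols.

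**Figure D1:**
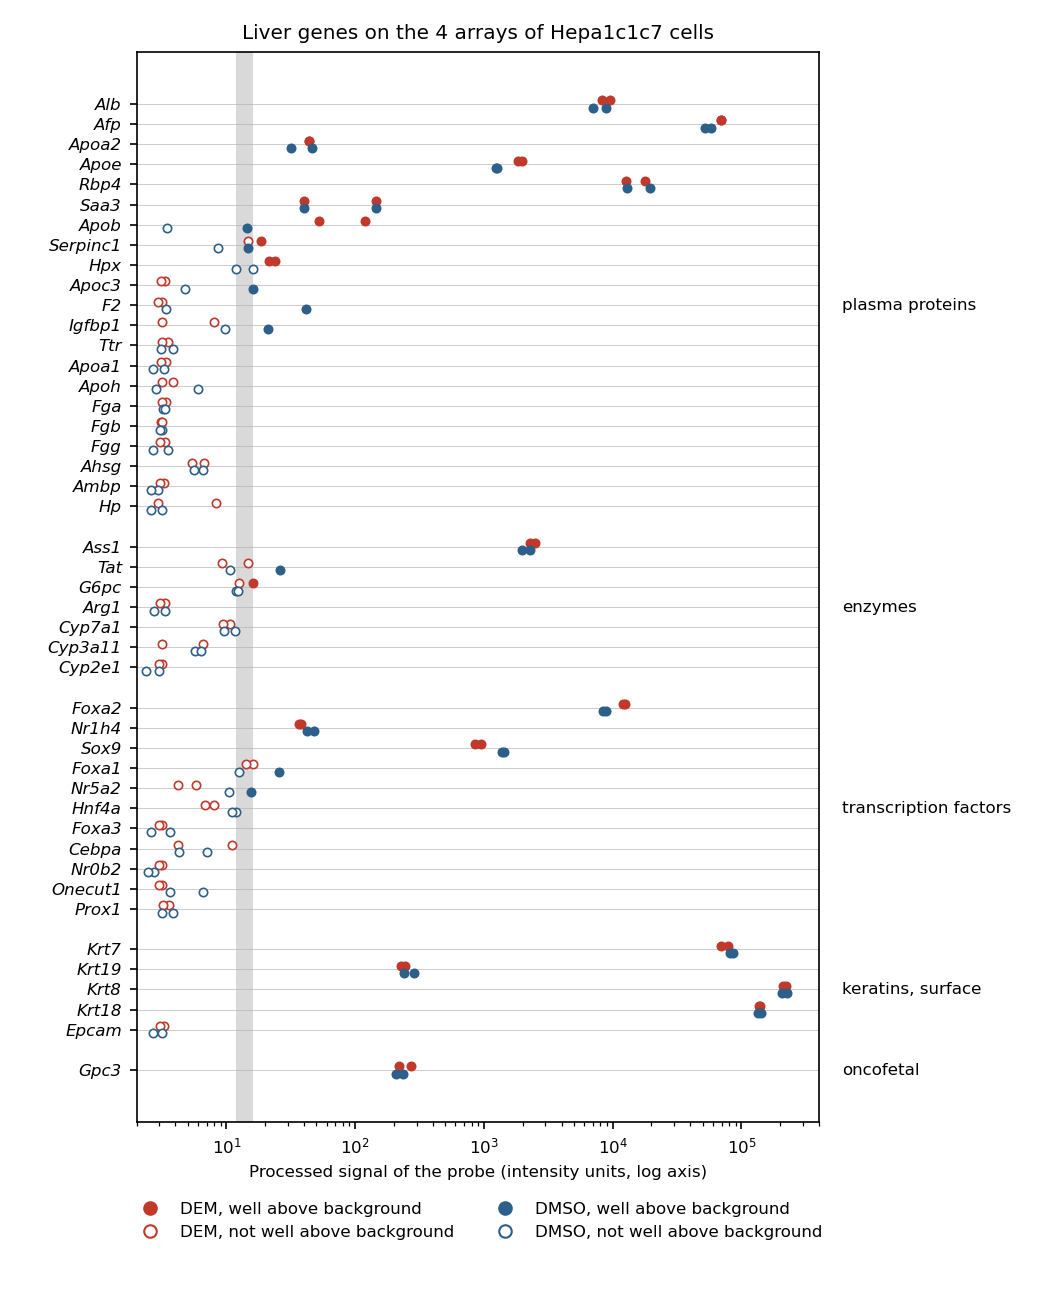
Processed signal (log axis, intensity units) of the 45 liver genes with a RefSeq probe, by class, each gene by 1 probe, with DEM arrays drawn above DMSO arrays in each row. Filled points were well above background, open points were not, and the grey band spans the lowest signals that were well above background, from 12 to 15.7. Of the genes, 15 are filled on all 4 arrays and 20 are open on all 4.

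A narrow set of hepatocyte products was present in the line. Among plasma proteins, 6 of 21 with a probe were well above background on all 4 arrays, namely albumin (Alb), alpha-fetoprotein (Afp), the apolipoproteins Apoa2 and Apoe, the retinol carrier Rbp4 and the acute-phase protein Saa3. Among enzymes the figure was 1 of 7, Ass1, which makes argininosuccinate in the urea cycle and in arginine synthesis. Among transcription factors it was 3 of 11, Foxa2, Nr1h4 and Sox9. Of the keratins and surface proteins 4 of 5 were present on all 4 arrays, namely Krt8 and Krt18, the keratin pair of hepatocytes, and Krt7 and Krt19, the keratins of bile ducts, and the epithelial surface protein Epcam was present on none. Gpc3, a glypican of fetal liver and hepatoma, was present on all 4.

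Many defining hepatocyte genes were not well above background on any array. They were the thyroxine and retinol transport protein Ttr, the main HDL apolipoprotein Apoa1, Apoh, the 3 fibrinogen chains Fga, Fgb and Fgg, fetuin (Ahsg), Ambp and haptoglobin (Hp). Among enzymes they were the urea cycle arginase Arg1, Cyp7a1, the rate-limiting enzyme of bile acid synthesis, and the drug-metabolising cytochromes Cyp3a11 and Cyp2e1. Among transcription factors they were Hnf4a, Foxa3, Cebpa, Nr0b2, Onecut1 and Prox1. The brightest probes of these 20 genes, with Epcam among them, had signals between 2.39 and 11.8 on every array. Those of Ahsg, Cyp7a1, Hnf4a and Cebpa met the weaker flag on all 4 arrays, so their signals were low but not at background.

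For Apoa1 and Hnf4a this rests on more than 1 spot. The Apoa1 probe was printed 10 times on each array and averaged 3.38 and 3.1 in DEM cells and 3.25 and 2.70 in DMSO cells. Hnf4a, a nuclear receptor at the centre of the hepatocyte network, had 3 probes, none well above background on any array. Its brightest probe read 6.75 and 7.96 in DEM cells and 11.8 and 11.1 in DMSO cells. These lie under the lowest signal well above background on each array, so no fold is given. That Hnf4a probe met the weaker flag on all 4 arrays, whereas the Apoa1 probe met it on none.

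**Figure D2:**
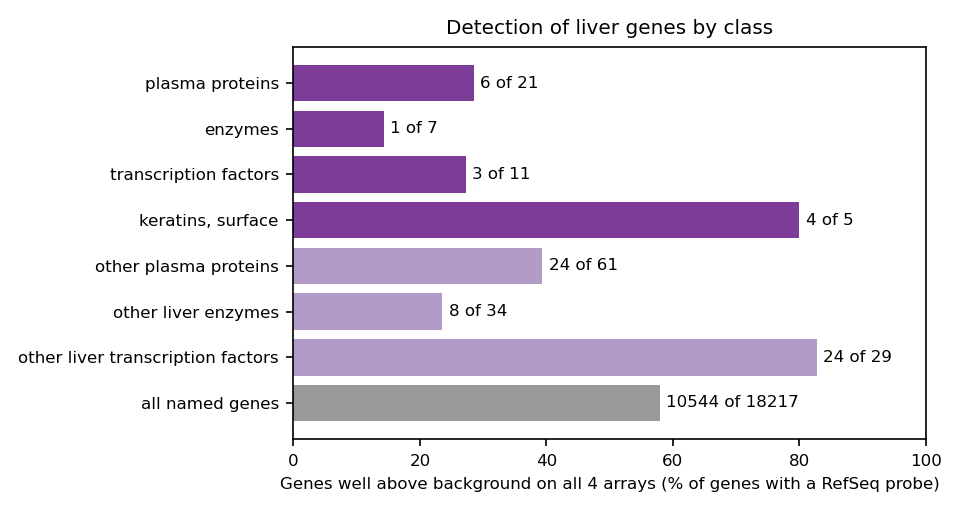
Share of genes with a RefSeq probe that were well above background on all 4 arrays (percent), for 4 classes of the 49 genes (dark), 3 lists of other liver genes (light) and all named genes (grey), with counts beside the bars. Plasma proteins, enzymes and transcription factors of the 49 lie under the 57.9% of all named genes, whereas the other liver transcription factors lie above it.

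The promoters of a detected pair and an undetected pair are shown because albumin and alpha-fetoprotein, neighbours on chromosome 5, were bright on every array while Apoa1 and Fga, both plasma protein genes, were not. Each sequence is the RefSeq window of 300 bases, 250 before and 50 after the start site, on the gene's strand, from RefSeq on GRCm38.p6, a build that differs from the mm9 of the array annotation. The windows are Alb at chr5:90460620-90460919 (+), Afp at chr5:90490464-90490763 (+), Apoa1 at chr9:46228380-46228679 (+) and Fga at chr3:83025903-83026202 (+). Capitals mark matches on either strand to the letters GTTAATNAT for HNF1, TGTTTGC or TGTTTAC for FOXA, and TATAAA for the TATA box.
Alb: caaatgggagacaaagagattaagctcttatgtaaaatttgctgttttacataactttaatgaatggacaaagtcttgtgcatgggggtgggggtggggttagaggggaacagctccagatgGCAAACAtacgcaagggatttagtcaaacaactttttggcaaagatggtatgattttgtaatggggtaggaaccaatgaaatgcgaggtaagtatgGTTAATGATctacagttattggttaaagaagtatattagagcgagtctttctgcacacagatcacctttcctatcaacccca
Afp: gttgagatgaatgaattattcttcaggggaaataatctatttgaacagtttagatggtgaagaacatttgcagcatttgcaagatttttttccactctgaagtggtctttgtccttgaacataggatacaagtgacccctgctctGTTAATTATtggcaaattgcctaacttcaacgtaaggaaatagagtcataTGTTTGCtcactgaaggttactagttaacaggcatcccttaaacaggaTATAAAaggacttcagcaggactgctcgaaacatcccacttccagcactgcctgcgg
Apoa1: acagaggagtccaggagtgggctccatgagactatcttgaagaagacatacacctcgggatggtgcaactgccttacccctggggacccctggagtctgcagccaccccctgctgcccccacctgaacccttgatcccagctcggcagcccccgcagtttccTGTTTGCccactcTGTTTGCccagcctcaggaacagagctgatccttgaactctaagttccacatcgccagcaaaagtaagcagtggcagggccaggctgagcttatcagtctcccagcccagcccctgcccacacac
Fga: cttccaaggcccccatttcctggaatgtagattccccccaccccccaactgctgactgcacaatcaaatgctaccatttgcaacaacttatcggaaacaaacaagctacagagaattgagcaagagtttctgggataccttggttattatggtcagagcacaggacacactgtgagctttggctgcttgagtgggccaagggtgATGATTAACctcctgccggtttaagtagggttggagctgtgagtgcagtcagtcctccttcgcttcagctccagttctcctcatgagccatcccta

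Alb holds the HNF1 letters at positions −32 to −24 from its start site and FOXA letters on the other strand. Afp holds the HNF1 letters at −105 to −97, FOXA letters at −55 to −49 and a TATA box at −7 to −2. Apoa1 holds the FOXA letters at 2 places, and Fga the HNF1 letters on the other strand at −46 to −38. Over the 49 windows of the 40 genes that have one, the HNF1 letters occurred in 6, and over all 32851 windows in 0.801%. The 6 belong to Alb and Afp, present on all arrays, to Fga, present on none, and to Igfbp1, G6pc and Nr5a2, each present on 1 array. The 2 FOXA forms occurred in 9 member windows (TGTTTGC, 5.07% of all windows) and 6 (TGTTTAC, 3.65%). The HNF4 letters CAAAGTCCA occurred in 1 member window, that of Cyp3a11 (0.475% of all windows), and TATAAA in 15 (13.6%). The letters TGACNNNGC, the core of the element that Nrf2 binds, occurred in 4 member windows, those of Ambp, Hpx, G6pc and Ahsg (12.4% of all windows), and in none of the 13 windowed genes that were present on all 4 arrays. Matches to different motifs did not overlap in these windows, while TATAAA matches on the 2 strands overlapped in Apoe and Krt8. A match is a run of letters and not a bound site, no match says nothing of the factor, and the windows miss distal enhancers.

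Whether DEM altered these genes was tested in 1 limma fit over all 15537 genes, on log2 signals scaled to each array's 75th percentile. A gene entered the fit where 2 or more arrays had a probe of it well above background, which 18 of the 49 did. None of the 18 was called at an adjusted p of 0.05, against 1.22% of all genes tested. The other 3 of the 18, Apob, Serpinc1 and Hpx, were not well above background on some arrays and are left out of the counts that follow. At an unadjusted p of 0.05, 3 of the 15 genes present on all 4 arrays were higher (Afp, Apoe and Foxa2) and 2 lower (Nr1h4 and Sox9), and 18.1% of all genes present on all 4 arrays met that mark in either direction. Scaled values of the DEM arrays both lay above those of the DMSO arrays for 4 of the 15 and both below for 4, and over all genes present on all 4 arrays this occurred for 25.6% and 24.8%. The median log2 change was −0.03 over the 15 and −0.006 over all genes tested. In bulk RNA, a lower level in every cell and fewer cells with the transcript cannot be told apart.

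The count of 0 depends on the settings. With 2 arrays per group the fit borrows spread across genes, and letting that borrowed spread follow the signal called 4 of the 18, with Apoe, Foxa2 and Apob higher and Sox9 lower (4.67% of all genes tested). With robust estimation added, 4 were called, with Afp, Apoe and Foxa2 higher and Sox9 lower (5.68%). After normexp background correction of the median spot signal with quantile normalization, a change of several steps at once, 3 were called, Apoe, Foxa2 and Sox9 (3.97%). With only genes well above background on all 4 arrays in the fit, Sox9 was called among 15 (2.92%).

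**Figure D3:**
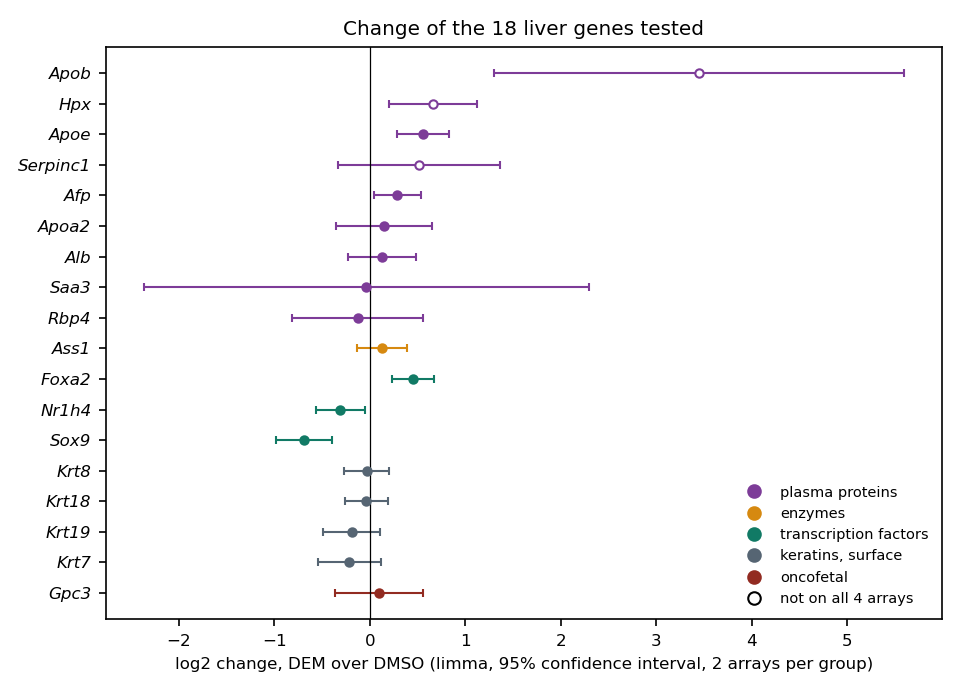
Log2 change of DEM over DMSO of the 18 liver genes tested, by class, with limma's 95% confidence interval from 2 arrays per group; open points were not well above background on all 4 arrays. Intervals of Apob, Hpx, Apoe, Afp and Foxa2 lie right of 0 and those of Nr1h4 and Sox9 left of it, while none passed the adjusted threshold. Hpx entered the fit only through the DEM arrays, so its direction was set by the filter.

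The abundant plasma proteins differed little. Alb, the main protein of plasma, had signals of 9550 and 8310 in DEM cells and 8840 and 7070 in DMSO cells, a log2 change of 0.13 ± 0.13 (SE; limma adjusted p = 0.661). The groups overlap, and the 95% interval runs from −0.23 to 0.49. Afp, albumin's fetal counterpart, was measured on 10 spots per array, of which up to 1 was flagged and dropped, with array means of 69590 and 68770 in DEM cells and 58244 and 51970 in DMSO cells. Both DEM arrays lay above both DMSO arrays, by a log2 change of 0.29 ± 0.09 (unadjusted p = 0.0299; limma adjusted p = 0.209). The spots of Afp varied by 1.70% to 2.68% within an array, a technical spread that says nothing of the variation between cultures.

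Among the apolipoproteins, Apoe stood apart from its replicate spread. It carries lipid between tissues and is made by hepatocytes and by macrophages, and its 10 spots per array gave means of 1826 and 1991 in DEM cells and 1269 and 1249 in DMSO cells. The log2 change was 0.56 ± 0.10, a ratio of 1.47 (unadjusted p = 0.00420; limma adjusted p = 0.0936), with an interval from 0.28 to 0.83. It did not pass the threshold, although both DEM arrays were above both DMSO arrays. When each array was left out in turn its log2 change stayed between 0.47 and 0.65. Of the macrophage and leukocyte markers, Csf1r had a log2 change of 0.42 ± 0.20 and Cd14 of −0.45 ± 0.12, neither called. Of the 7 with a probe, 4 were on no array. The source of the Apoe difference was not tested. Apoa2, an HDL apolipoprotein, was dim, with 43.5 and 43.6 in DEM cells and 46.1 and 31.6 in DMSO cells. Its groups overlap (log2 change 0.15 ± 0.19; limma adjusted p = 0.732), and without DMSO replicate 2 the change was −0.10.

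Apob, the structural protein of very low density lipoprotein, had the widest interval but 1 among the 18. Its brightest probe read 52.7 and 119 in DEM cells and 14.4 and 3.46 in DMSO cells, a fitted log2 change of 3.45 ± 0.80 (limma adjusted p = 0.138). The probe was well above background on both DEM arrays and on DMSO replicate 1, and DMSO replicate 2 lay under the lowest signal well above background on that array. With DMSO replicate 2 set to that lowest signal, the log2 change of this probe was 2.55, a ratio of 5.85. That ratio is not a minimum for the gene, since the interval of the fit ran from a log2 change of 1.30 to 5.59. The other 4 Apob probes were not well above background on any array, with signals from 2.48 to 5.94. The fitted change of the brightest probe was 0.91 after normexp, whose offset of 50 compresses dim signals, and ran from 2.44 to 4.45 as each array was left out.

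**Figure D4:**
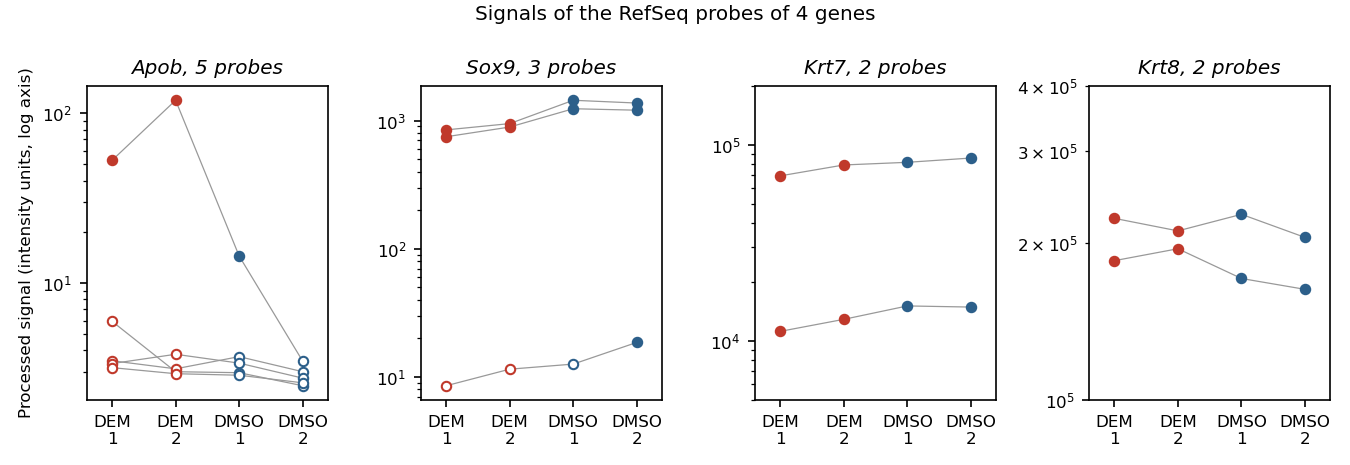
Processed signal (log axis, intensity units) on the 2 DEM and 2 DMSO arrays of every RefSeq probe of Apob, Sox9, Krt7 and Krt8, with lines joining the values of a probe; filled points were well above background. Only 1 of the 5 Apob probes was well above background on any array. The 2 bright Sox9 probes are lower in both DEM arrays than in both DMSO arrays, and the 2 Krt8 probes run in opposite directions.

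The dimmer plasma proteins were read near background. Hemopexin (Hpx), which binds free heme, had 21.4 and 23.8 in DEM cells and 16.2 and 11.9 in DMSO cells and was well above background on both DEM arrays and on neither DMSO array. It entered the fit only through the DEM arrays, so its direction was set by the filter and no size is given. Where only 1 group was well above background, a bound set that group's mean against the other group. Each array of the other group took the higher of its own signal and the lowest signal well above background there. Antithrombin (Serpinc1) had 14.7 and 18.6 in DEM cells and 8.64 and 14.6 in DMSO cells, well above background on 1 array of each group (log2 change 0.52 ± 0.32; limma adjusted p = 0.458). With DMSO replicate 1 left out its change was 0.11, and with DMSO replicate 2 left out it was 0.92.

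Igfbp1, which binds insulin-like growth factors, had 3.18 and 7.94 in DEM cells and 9.80 and 21.1 in DMSO cells. It was well above background only on DMSO replicate 2. Prothrombin (F2) was so only there too, with 3.16 and 2.94 in DEM cells and 3.38 and 41.3 in DMSO cells. Apoc3, which slows the clearance of triglyceride-rich particles, was so only on DMSO replicate 1. Its signals were 3.32 and 3.09 in DEM cells and 16.1 and 4.8 in DMSO cells. A second Apoc3 probe was on background throughout. No fold is given for these 3, since the bound was under 1.

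Rbp4 and Saa3 differed more between replicate numbers than between treatments. Rbp4 had 17700 and 12600 in DEM cells and 19600 and 12800 in DMSO cells, so that replicate 1 was brighter in both groups and the groups overlap (log2 change −0.13 ± 0.25; limma adjusted p = 0.840). Without DEM replicate 2 or DMSO replicate 1 the sign turned, to 0.09 and 0.15. Saa3, a serum amyloid A of inflammation, had 145 and 39.9 in DEM cells and 144 and 39.9 in DMSO cells. Replicate 1 exceeded replicate 2 by 1.81 log2 units in DEM cells and by 1.80 in DMSO cells, against a treatment change of −0.04 ± 0.87 (limma adjusted p = 0.989). The treatment change of Saa3 ran from −0.94 to 0.87 as each array was left out, so these arrays do not resolve it.

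**Figure D5:**
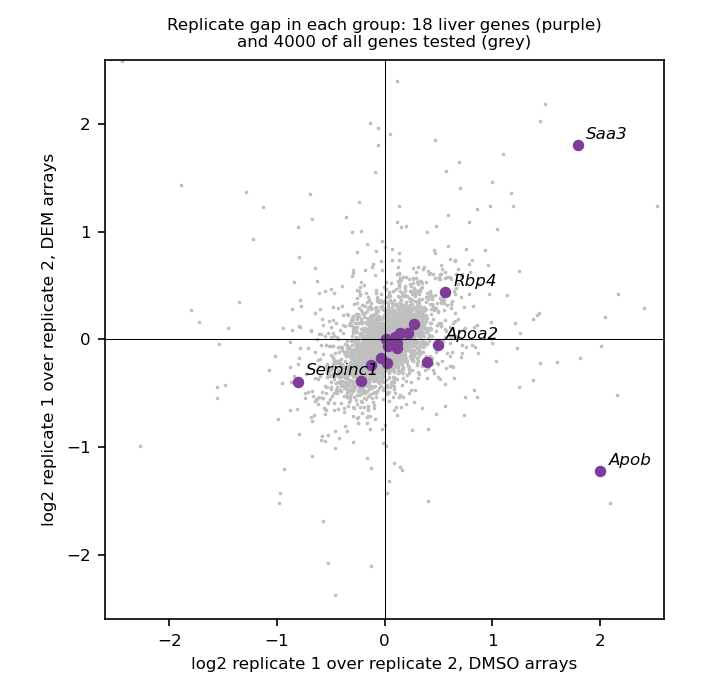
Log2 ratio of replicate 1 over replicate 2 on the DEM arrays (vertical) against the same on the DMSO arrays (horizontal), for the 18 liver genes tested (purple) and a random 4000 of all genes tested (grey, points outside the axes not drawn). Saa3 lies at 1.80 and 1.81, Rbp4 is positive in both groups, and Apob goes opposite ways in the 2 groups.

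Over all genes tested, 50 (0.322%) differed between replicates by over 1 log2 unit the same way in both groups, and 32 of these were higher in replicate 1. Of the 18 liver genes, 11 had the same sign of replicate difference in both groups, and 66.5% of all genes tested did. The correlation of the replicate differences of the 2 groups across genes was 0.138, and genes are not independent replicates. The arrays shared 1 slide and 1 scan, and what the replicate number stands for was not tested.

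Among the enzymes, Ass1 had 2480 and 2290 in DEM cells and 2270 and 1980 in DMSO cells. The DEM arrays were above the DMSO arrays by a narrow margin, with a log2 change of 0.13 ± 0.10 (limma adjusted p = 0.557). Tyrosine aminotransferase (Tat) had 14.7 and 9.15 in DEM cells and 10.6 and 26.1 in DMSO cells, well above background only on DMSO replicate 2, and the groups overlap. Glucose-6-phosphatase (G6pc), which releases glucose from the liver, had 16.0 and 12.4 in DEM cells and 11.9 and 12.3 in DMSO cells. It was well above background only on DEM replicate 1, and its scaled values overlap between the groups. Neither was tested, since each was present on 1 array.

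The 3 transcription factors tested had changes of both signs, none of them called. Foxa2, a forkhead factor that opens liver chromatin, was measured on 10 spots per array, with means of 12430 and 11920 in DEM cells and 8867 and 8458 in DMSO cells. Its log2 change was 0.45 ± 0.08, a ratio of 1.37 (unadjusted p = 0.00420; limma adjusted p = 0.0936), with an interval from 0.23 to 0.67, and both DEM arrays were above both DMSO arrays. Spots within an array varied by 1.17% to 2.82%, and the change stayed between 0.44 and 0.46 as each array was left out. Its relatives differed from it in detection. Foxa3 was well above background on no array. Foxa1 had 16.0 and 14.1 in DEM cells and 25.8 and 12.5 in DMSO cells, present only on DMSO replicate 1, with overlapping groups.

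Sox9, a factor of bile duct and progenitor cells, was lower in DEM cells than in DMSO cells on both of its bright probes, without passing the test. Its brightest probe read 846 and 947 in DEM cells and 1440 and 1370 in DMSO cells, a log2 change of −0.69 ± 0.11 (unadjusted p = 0.00241; limma adjusted p = 0.0782) with an interval from −0.99 to −0.40. A second probe, printed 10 times, had means of 748 and 890 in DEM cells and 1237 and 1205 in DMSO cells and a log2 change of −0.62. The dimmest probe was well above background only on DMSO replicate 2. The change ran from −0.80 to −0.58 as each array was left out.

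Nr1h4, the bile acid receptor FXR, had 36.8 and 37.6 in DEM cells and 47.5 and 42.3 in DMSO cells. Both DEM arrays were below both DMSO arrays, with a log2 change of −0.31 ± 0.10 (unadjusted p = 0.0272; limma adjusted p = 0.201), which was −0.02 after normexp. Its target gene Nr0b2, a repressor of bile acid synthesis, was on background. Nr5a2, a nuclear receptor of bile acid and cholesterol genes, had 5.82 and 4.17 in DEM cells and 10.5 and 15.4 in DMSO cells and was present only on DMSO replicate 2, with no bound above 1.

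The keratins were bright and close to level. Krt8 had 223000 and 211000 in DEM cells and 227000 and 205000 in DMSO cells (log2 change −0.03 ± 0.09; limma adjusted p = 0.884), and its second probe ran the other way at 0.14. Krt18 had 138000 and 139000 in DEM cells and 142000 and 134000 in DMSO cells (log2 change −0.04 ± 0.09; limma adjusted p = 0.869). The groups overlap for both, with intervals from −0.27 to 0.20 and from −0.27 to 0.19, and scaling on the array median turned the signs of both, to 0.11 each.

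The bile duct keratins were both lower in scaled signal on the DEM arrays, without passing the test. Krt7 had 69600 and 79100 in DEM cells and 81600 and 85800 in DMSO cells (log2 change −0.21 ± 0.12; limma adjusted p = 0.427), and −0.36 by its second probe. Krt19 had 245 and 227 in DEM cells and 287 and 238 in DMSO cells (log2 change −0.19 ± 0.11; limma adjusted p = 0.443). The unscaled signals of Krt19 overlap between the groups. Scaling on the array median left log2 changes of −0.07 for Krt7 and −0.04 for Krt19. With Sox9, 3 of the 4 bile duct markers among the 49 genes were present and lower in scaled signal on both DEM arrays, a pattern that 24.8% of all genes present on all 4 arrays also had, and the fourth, Epcam, was present on none. Spp1, a bile duct marker outside the 49, did not pass the test either (log2 change −0.34 ± 0.28; limma adjusted p = 0.574).

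Gpc3 had 217 and 273 in DEM cells and 209 and 235 in DMSO cells, and the groups overlap (log2 change 0.09 ± 0.17; limma adjusted p = 0.820). Its sign turned without DEM replicate 2 (−0.10) or DMSO replicate 1 (−0.02).

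By class, the median log2 change was 0.14 over the 6 plasma proteins present on all 4 arrays, of which 4 had a positive change. It was 0.29 over all 9 tested and 0.0095 with no filter on dim probes. The 9 include Apob and Serpinc1, dim on some arrays, and Hpx, which passed the filter only through the DEM arrays. The median was −0.31 over the 3 transcription factors and −0.11 over the 4 keratins, beside −0.006 over all genes tested. These medians describe members that passed the filter, and the difference between classes was not tested. The enzymes gave only Ass1 and the oncofetal genes only Gpc3.

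Other liver genes, from lists that hold none of the 49, were read for detection and change in the same way. Of 64 other plasma proteins, 61 had a probe and 24 (39.3%) were well above background on all 4 arrays, against 32 on none. Of 25 tested, 0 were called, against 1.22% of all genes tested, and the median log2 change was −0.18. At an unadjusted p of 0.05, 3 were higher and 1 lower (limma). That mark was met by 18.1% of all genes present on all 4 arrays. The lowest p was that of F11, a coagulation factor, with 84.0 and 88.7 in DEM cells and 58.5 and 53.9 in DMSO cells (log2 change 0.58 ± 0.10; limma adjusted p = 0.0808). The groups do not overlap.

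Of 34 other liver enzymes, all with a probe, 8 (23.5%) were present on all 4 arrays and 22 on none. Of 9 tested, 0 were called, against 1.22% of all genes tested. Among the 8 present on all 4 arrays, only Gnmt met an unadjusted p of 0.05 (limma), and it was higher. That mark was met by 18.1% of all genes present on all 4 arrays. The median log2 change of 0.10 is over all 9, with histidine ammonia-lyase (Hal) among them. The lowest p was that of Hal, with 19.5 and 17.7 in DEM cells and 14.1 and 8.19 in DMSO cells. It was well above background on both DEM arrays and neither DMSO array, so it entered the fit only where it was high and no size is given.

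Among the lists of other liver genes, the transcription factors had the largest share present on all 4 arrays. Of 30 listed, 29 had a probe and 24 (82.8%) were present on all 4 arrays, against 4 on none. The share was 27.3% for the 11 transcription factors among the 49 genes, with Hnf4a and Cebpa on no array. Expression of the listed factors outside the liver was not examined. All 24 of the list were tested and 0 called, against 1.22% of all genes tested, and the median log2 change was 0.06. At an unadjusted p of 0.05, 2 were higher and 3 lower (limma). That mark was met by 18.1% of all genes present on all 4 arrays. The lowest p was that of Zhx2, known in mouse as a repressor of Afp, H19 and Gpc3 in the adult liver, with 45.0 and 51.0 in DEM cells and 83.7 and 87.3 in DMSO cells. Its groups do not overlap, with a log2 change of −0.88 ± 0.12 (limma adjusted p = 0.0628).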

How the data were processed

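RNA was hybridised in 1 colour (Cy3) to 4 Agilent mouse arrays, whose annotation is on mm9 and whose images were read with Feature Extraction 10.7.3.1 (protocol GE1_107_Sep09), per the file headers. The deposited values used are processed signals, an intensity on a linear scale that comes, per the file headers, after the software's own background subtraction, and the flags beside them. The series' value table held the same intensity for all 45018 spots. Its medians ran from 13.8 to 16.2. All arrays shared 1 slide and 1 scan time, so neither could be tested as a batch. The number of arrays limits the precision.

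From these values, spots with an outlier flag were dropped, signals were put on a log2 scale, each array's 75th percentile over non-control spots (513 to 547.5) was subtracted, and the spots of a probe were averaged. Transcript names were matched to RefSeq symbols (GRCm38.p6), which named 26690 of 41174 probes, and 14484 kept the name in the files. A further 22 probes with no unflagged spot were left out. The fit kept, per gene, the probe with the highest mean among those well above background on at least 2 arrays. This left 15537 genes, 10953 under a symbol. DEM was compared with DMSO by lmFit and eBayes of limma 3.58.1 (R 4.3.3), with p-values adjusted by Benjamini-Hochberg over all genes, on both arrays of each group. No spot was saturated.

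All 49 genes are named, and from each list of other liver genes the member with the lowest p. The genes, lists and tests were chosen with earlier results of these data known. Alternatives were normexp (offset 50, on the median spot signal, since the files hold no mean signal) with quantile normalization, quantile, median and spike-in scaling, the value table, other filters and probe rules, eBayes with a trend, the replicate block, and leaving out each array.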

Additional observations from a re-analysis of the deposited data

How the results depend on the processing

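Of 15537 genes tested, 190 were called, 617 after normexp with quantile normalization, 93 after quantile normalization, 567 with median scaling, 557 with spike-in scaling, 0 with no filter on dim probes (3165 at an unadjusted p of 0.05), 426 with genes well above background on all 4 arrays, 726 with a trend and 882 with a trend and robust fitting. With an array left out the count ran from 0 to 121, and it was 0 without either DMSO array, 121 without DEM replicate 1 and 102 without DEM replicate 2. Calls were 58.4% higher, 71.3% with median scaling and 35.9% with spike-in scaling. Median scaling, set by dim spots, moved the median of all genes to 0.14. With the replicate number as a replicate block 143 genes and 0 of the 49 were called, and with 2 pairs the numbers share only a number. Of the 49, 0 were called, but 3 after normexp, 1 with median scaling (Apob), 1 with spike-in scaling (Apob), 1 with the filter on all 4 arrays, 4 with a trend and 4 with a trend and robust fitting. Spike-in scaling left limma with an infinite prior df, so its p-values are not quoted. Present on all 4 arrays were 15 of the 49, whereas 25 were present on at least 1 array and 26 by the weaker flag. The plasma protein median was 0.29, 0.13 after normexp, 0.43 with median scaling, 0.0095 with no filter and 0.14 with the filter on all 4 arrays. The enzyme median was 0.23 after normexp, 0.27 with median scaling and 0.031 with no filter. The transcription factor median was −0.019 after normexp and −0.17 with median scaling. It was −0.47 with every probe on its own, a median over probes in which Sox9 counts 2 times. The keratin median was −0.033 after normexp and 0.032 with median scaling. Signs reversed for genes that were not called. Rbp4 was 0.019 with median scaling. Saa3 was 0.042 after normexp, 0.048 with quantile normalization and 0.11 with median scaling. Krt8 was 0.19 after normexp, 0.0046 with quantile normalization, 0.11 with median scaling and 0.056 as the mean of its probes. Krt18 was 0.022 after normexp and 0.11 with median scaling. With an array left out, log2 changes ran from −0.0041 to 0.27 for Alb, −0.097 to 0.40 for Apoa2, −0.41 to 0.15 for Rbp4, −0.94 to 0.87 for Saa3, −0.081 to 0.014 for Krt8 and −0.098 to 0.29 for Gpc3. The cause of these changes was not tested. Signals near the lowest well above background (12 to 15.7) limit what can be said of dim genes.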
